A study of Drosophila melanogaster with 27 samples.

Results

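The short structured noncoding RNAs described here are the transcripts of the fly genes for small nuclear RNAs (snRNAs, 7SK among them), tRNAs, the RNA subunits of RNase P and RNase MRP, and 7SL RNA. They were chosen by their FlyBase symbols, among genes with at least 10 counts summed over 27 libraries, so the summed count that chose them is a description and supports nothing below. The rule found 134 of the 330 genes of these names in a table of 17807 genes: 100 of 295 tRNA genes, 29 of 30 snRNA genes, 2 genes for 7SL and 1 each for 7SK, RNase P RNA and RNase MRP RNA. At the edge of the rule, 10 genes had exactly 10 counts and entered, snRNA:U1:21D among them, and 9 genes had 9 counts and did not. The snRNA gene left out, snRNA:U5:35D, had 7 counts.

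These RNAs work inside protein particles. The U1, U2, U4, U5 and U6 snRNAs build the major spliceosome, U11, U12, U4atac and U6atac serve with U5 in the minor spliceosome, and U7 guides the cut that forms the ends of histone mRNAs. 7SK holds the transcription elongation kinase P-TEFb in an inactive state, 7SL is the scaffold of the signal recognition particle that brings ribosomes to the endoplasmic reticulum, RNase P trims the leading ends of tRNA precursors, RNase MRP processes ribosomal RNA precursors, and tRNAs decode mRNA on the ribosome.

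Fmr1 is the fly counterpart of the RNA-binding protein lost in fragile X syndrome, and Ythdf (CG6422) is a cytoplasmic protein that reads the RNA modification m6A. RNA from pupal head lysate, 200 heads per genotype, was sequenced as input, after pull-down with the Fmr1 antibodies 5B6 and 5A11, and after a control pull-down with mouse IgG. The wild type was the w1118 stock, with replicates 1, 2, 3, 5 and 7 of each kind of library, and the mutant had the genotype Ythdf#0/#0, with replicates 1, 2, 3 and 7. No sample had another treatment, the lesion in Ythdf is not described in the labels, and the labels name whole brain as the tissue where the protocol describes whole heads.

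Counts in genes ran from 5623123 to 15459370 in the 9 inputs, from 10726339 to 54195136 in the 9 Fmr1 libraries and from 196933 to 5879253 in the 9 IgG libraries. Ythdf mRNA was present in every mutant input, at 32.8 ± 3.15 CPM (gene counts scaled to library size and by the trimmed mean of M-values, TMM; SD, n = 4), and below the wild-type inputs, at 61.6 ± 5.28 CPM (n = 5), without overlap. Its log2 difference of −0.91 ± 0.32 (SE) did not pass the threshold (edgeR adjusted p = 0.103). Markers of neurons, photoreceptors, glia, muscle, fat body and hemocytes were all present in every group. The 5 fat-body markers stood apart, with a summed level of 60.0 to 123 CPM in wild-type inputs, 30.3 to 225 CPM in wild-type Fmr1 libraries and 877 to 2424 CPM in wild-type IgG libraries, and 167 to 213, 54.5 to 318 and 915 to 6276 CPM in the mutant. Like many of the RNAs below, these markers were lower in Fmr1 than in IgG libraries, and their part in those results was not tested. Against input the markers were higher in IgG, while RNase P RNA and RNase MRP RNA were lower there.

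The RNAs took 0.273% to 0.784% of the counts in genes of an input, 0.0176% to 0.0522% of those of an Fmr1 library and 0.150% to 0.581% of those of an IgG library, so the highest Fmr1 library held a smaller share than the lowest IgG library. Most of these counts came from few genes. 7SK, RNase MRP RNA and RNase P RNA together held 572328 of 707830 counts (80.9%), and 82.4% to 93.1% within each input. The 100 tRNA genes together held 4572 counts, with a median of 25.5 per gene.

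Reads from near-identical copies can be discarded or divided in counting, and 27.9% to 47.2% of the reads of an input were not uniquely placed. Genes with such copies, among them those of U1, U2, U5, U6, 7SL and tRNAs, may therefore read low. The shares above and the order below are those of counted reads and not of RNA abundance. Per kilobase of gene length, 7SK had the highest level of single genes in wild-type inputs, at 5666 ± 1488 CPM per kb (SD, n = 5). RNase MRP RNA followed at 3257 ± 838 CPM per kb, the U4 gene snRNA:U4:39B at 2084 ± 1176 and RNase P RNA at 2006 ± 524, and the last pair did not differ beyond their spread. The next gene, snRNA:U4atac, reached 381 ± 380 CPM per kb. In the wild-type Fmr1 libraries the order was another one, led by snRNA:U4:39B at 691 ± 490 CPM per kb, with 7SK at 262 ± 137, snRNA:U2:34ABa at 245 ± 282, snRNA:U5:63BC at 173 ± 201 and RNase MRP RNA at 91.0 ± 38.1. Neighbours in this order overlapped, while the lowest Fmr1 library of snRNA:U4:39B, at 187.9 CPM per kb, lay above the highest of RNase MRP RNA, at 132.9. In the wild-type IgG libraries snRNA:U4:39B stood at 5656 ± 4445 CPM per kb, 7SK at 3641 ± 2023 and RNase MRP RNA at 1255 ± 958.

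Tests were run for 43 of the 134 genes, those with enough counts: 18 tRNA genes, 20 snRNA genes, both 7SL genes, 7SK, RNase P RNA and RNase MRP RNA. A filter on low counts can favour one kind of library, since 1 count in the shallowest IgG libraries is worth several CPM. Of the 43 genes, 14 (11 tRNA and 3 snRNA genes) passed only with their IgG libraries counted in. Another 29 passed without them, and 10, none of them a tRNA gene, were over the filter level in every library. Counts over the 43 therefore lean towards higher IgG levels and are given with those over the 29. A call is an adjusted p under 0.05 in edgeR's quasi-likelihood test, adjusted over 11469 genes. Levels are shares of a library's gene counts, and every IgG library was shallower than every Fmr1 library. A lower level in Fmr1 than in IgG is therefore a smaller share, and the amount of RNA recovered was not measured.

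Against IgG, no tested gene was higher in the Fmr1 pull-down. In the wild type 28 of the 43 genes were lower, 15 were not called and the median log2 fold change was −2.88, and in the mutant 27 were lower, 16 were not called and the median was −3.37. Over all genes tested 16.9% were called lower and 16.7% higher in the wild type, with a median of −0.02, and 9.53% lower and 11% higher in the mutant, with a median of 0.00. With DESeq2's size factors in place of TMM the median of all genes moved by −0.23 in the wild type and −0.16 in the mutant, and the split of all genes from 1919 higher and 1937 lower to 982 and 2563 and from 1267 and 1093 to 650 and 1338, while the RNAs described here still had 0 higher. At an unadjusted p under 0.05 the higher genes also numbered 0 in both genotypes, and DESeq2 called 0 higher as well. Among the 29 genes that passed without IgG libraries, 19 were lower in the wild type and 17 in the mutant. The comparisons of Fmr1 with IgG and with input share their Fmr1 libraries, and the comparisons of either with input share the inputs, so each is given with its own values.

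7SK (snRNA:7SKa, FBgn0065099, 3R:7474553-7474996 on the minus strand in the annotation BDGP6.54) was lower in every Fmr1 library than in any other. In the wild type it stood at 1422, 2471, 3090.1, 2627 and 2968 CPM in the inputs of replicates 1, 2, 3, 5 and 7, at 49.3, 88.5, 125, 213 and 106 CPM in the Fmr1 libraries and at 849, 1637, 3012, 1782 and 802 CPM in the IgG libraries. In the mutant it stood at 3557, 2105, 2484 and 2279.5 CPM in the inputs of replicates 1, 2, 3 and 7, at 76.2, 63.3, 55.1 and 96.7 CPM in the Fmr1 libraries and at 980.0, 1151, 887 and 1343 CPM in the IgG libraries. Inputs and IgG libraries of the wild type overlapped, and the Fmr1 libraries of both genotypes lay below all of them. The log2 fold change of Fmr1 over IgG was −3.80 ± 0.36 in the wild type (13.9-fold lower, edgeR adjusted p = 1.05e-07) and −3.90 ± 0.41 in the mutant (adjusted p = 4.89e-07).

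RNase MRP RNA (FBgn0065098, 3R:23730048-23730429, minus strand) and RNase P RNA (FBgn0046696, 3R:31217364-31217662, minus strand) were both lower than IgG as well. RNase MRP RNA stood at 43.6, 28.9, 37.5, 50.8 and 13.0 CPM in the wild-type Fmr1 libraries and at 1091, 303, 466, 414 and 124 CPM in the IgG libraries, against 764, 1295, 1665, 1232 and 1264 CPM in the inputs. In the mutant the Fmr1 libraries held 69.5, 33.3, 35.3 and 20.7 CPM, the IgG libraries 697, 424, 464 and 706 CPM and the inputs 1801, 1787, 1954 and 1496 CPM. No Fmr1 library reached the lowest IgG library in either genotype, and the log2 fold changes were −3.74 ± 0.44 (edgeR adjusted p = 9.85e-07) in the wild type and −3.85 ± 0.49 (adjusted p = 6.89e-06) in the mutant.

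RNase P RNA was the steadiest of the abundant RNAs in the Fmr1 libraries, at 17.7, 19.7, 21.2, 24.8 and 20.7 CPM in the wild type and 18.3, 13.2, 14.0 and 12.7 CPM in the mutant. Its IgG libraries held 199, 195, 260.3, 115 and 70.3 CPM in the wild type and 137, 110.5, 129 and 257 CPM in the mutant, and its inputs 359.6, 704, 770.4, 585 and 580.3 CPM and 796, 683, 753 and 601 CPM. The 3 kinds of library did not overlap in either genotype, with inputs highest and Fmr1 lowest. Fmr1 over IgG was −2.98 ± 0.28 on the log2 scale in the wild type (7.89-fold lower, edgeR adjusted p = 1.05e-07) and −3.48 ± 0.32 in the mutant (11.2-fold lower, adjusted p = 1.65e-07). The calls of 7SK, RNase P RNA and RNase MRP RNA against IgG were kept without any single library.

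Both abundant processing RNAs lie in introns of other genes. RNase P RNA lies in an intron of ATPsynC on the same strand, and that gene, which encodes a subunit of the mitochondrial ATP synthase, showed Fmr1 over IgG of 0.29 ± 0.16 in the wild type and 0.20 ± 0.18 in the mutant, neither called. RNase MRP RNA lies in an intron of CG10365 on the opposite strand (0.13 ± 0.20 in the wild type, not called). snRNA:U4:39B lies in Atg18b and snRNA:U4atac in cno, each on the strand of its host, at 0.43 ± 0.23 and 0.27 ± 0.17 for the hosts in the wild type, again not called. In all, 73 of the 134 genes lie inside another gene, 23 of them among the 43 tested.

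7SL RNA has a pair of copies on 3R, 7SLRNA:CR32864 (FBgn0000003, 3R:6822500-6822798, plus strand) and 7SLRNA:CR42652 (FBgn0261504, 3R:6820131-6820429, minus strand). Reads from near-identical copies can be discarded or divided in counting, and 15.1% to 62.3% of the reads of a library were not uniquely placed, so values of single copies are uncertain and the copies are also given as a sum. Summed, 7SL stood at 2.17, 38.6, 98.4, 14.3 and 19.3 CPM in wild-type inputs, at 0.0731, 0.893, 3.11, 0.558 and 0.141 CPM in the Fmr1 libraries and at 4.74, 40.4, 74.0, 6.57 and 1.64 CPM in the IgG libraries. In the mutant the inputs held 107, 78.0, 108 and 23.9 CPM, the Fmr1 libraries 0.673, 0.607, 0.110 and 0.0649 CPM and the IgG libraries 6.51, 48.0, 59.5 and 11.1 CPM. Replicate 1 was the lowest of the wild-type inputs and replicate 3 the highest of each wild-type kind, and the wild-type Fmr1 and IgG libraries overlapped, while those of the mutant did not.

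For the summed 7SL genes Fmr1 over IgG was −4.87 in the wild type (edgeR adjusted p = 0.00211) and −6.26 in the mutant (adjusted p = 0.00232). These sums carry no SE. Single copies gave −4.84 ± 1.17 for CR32864 and −4.87 ± 1.27 for CR42652 in the wild type, and −6.15 ± 1.40 and −6.24 ± 1.43 in the mutant. The wild-type calls of both copies were lost without the IgG library of replicate 3, and in replicates 1, 5 and 7 alone CR32864 stood at −4.77 (adjusted p = 0.139) and CR42652 at −2.66 (adjusted p = 0.301). In the mutant, replicates 1 and 7 alone gave −4.77 (adjusted p = 0.159) and −5.46 (adjusted p = 0.0662).

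**Figure D1:**
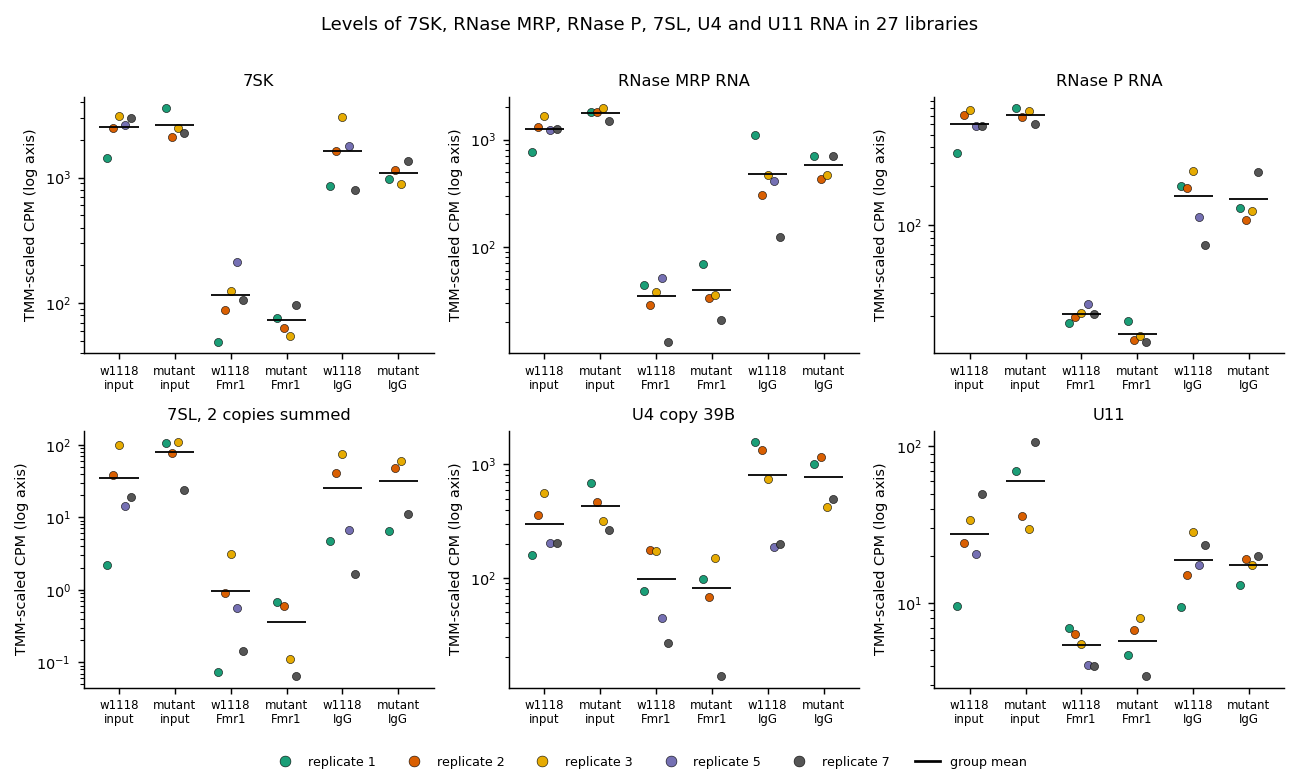
TMM-scaled CPM on a log axis of 7SK, RNase MRP RNA, RNase P RNA, the summed 7SL genes, snRNA:U4:39B and U11 in the 27 libraries. Points are libraries coloured by replicate number and lines are group means. The Fmr1 libraries of 7SK lie between 49.3 and 213 CPM, below every input and IgG library.

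Of the major spliceosomal snRNAs, U4 and U1 were lower in the Fmr1 pull-down than in IgG. snRNA:U4:39B (FBgn0003930, 2L:21215036-21215178, minus strand), the U4 gene with most counts, held 77.0, 175, 171, 44.1 and 26.9 CPM in wild-type Fmr1 libraries, 1565, 1341, 749.7, 188 and 199 CPM in IgG and 158, 359, 566, 205 and 202 CPM in inputs. In the mutant the Fmr1 libraries held 97.6, 67.7, 150.2 and 13.7 CPM, the IgG libraries 1003, 1158, 422 and 498 CPM and the inputs 683, 469.6, 315 and 264 CPM. Fmr1 and IgG libraries did not overlap in either genotype, and the log2 fold changes were −3.00 ± 0.69 (edgeR adjusted p = 0.00166) and −3.22 ± 0.77 (adjusted p = 0.00501). The other U4 gene tested, snRNA:U4:38AB, was at −2.44 ± 0.69 and −3.43 ± 0.78, both called.

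U1 snRNA, which recognises the 5′ splice site, was read from a pair of tested copies. snRNA:U1:82Eb held 2.78, 2.48, 2.21, 0.558 and 0.354 CPM in wild-type Fmr1 libraries and 75.9, 40.4, 26.0, 4.38 and 4.42 CPM in IgG, without overlap, and fell by 3.65 ± 0.80 on the log2 scale (edgeR adjusted p = 0.00108). In the mutant it fell by 3.34 ± 0.86 (adjusted p = 0.00779), also without overlap. snRNA:U1:95Cc was at −3.88 ± 1.25 (adjusted p = 0.0203) in the wild type and −3.29 ± 1.38 (adjusted p = 0.0970) in the mutant. The wild-type call was lost without the IgG library of replicate 1, and in the mutant the fit with a replicate block, which compares libraries of 1 lysate, called it at −2.97 (adjusted p = 0.0443). All U1 copies summed were at −3.97 and −3.36, both called.

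U5, the snRNA that holds the exon ends in both spliceosomes, was spread over 6 tested copies. Of these, snRNA:U5:14B, snRNA:U5:23D, snRNA:U5:34A and snRNA:U5:38ABa were lower in both genotypes, with log2 fold changes of −4.68, −2.42, −3.72 and −2.61 in the wild type and −3.89, −3.07, −4.37 and −2.07 in the mutant. snRNA:U5:38ABb was lower in the wild type (−2.36 ± 0.84, edgeR adjusted p = 0.0302) and not called in the mutant (−1.66 ± 1.21). As snRNA:U5:14B and snRNA:U5:38ABb passed the filter only with IgG libraries, a lower level in Fmr1 was favoured for them by the filter. The copy with most counts, snRNA:U5:63BC, was not called in either (−2.08 ± 1.10 and −2.13 ± 1.21), nor were the copies summed (−2.23, adjusted p = 0.0712, and −2.32). Most of the single-copy calls rested on few libraries. Those of snRNA:U5:23D in both genotypes, snRNA:U5:14B and snRNA:U5:38ABa in the mutant and snRNA:U5:38ABb in the wild type were each lost in 3 to 7 of the fits that left out 1 library, and that of snRNA:U5:38ABa in the wild type without the IgG library of replicate 7.

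U2, which pairs with the branch site, had the smallest summed difference of these 5 classes. snRNA:U2:34ABa was at −0.93 ± 0.94 in the wild type and −1.29 ± 1.05 in the mutant, snRNA:U2:34ABb at −0.66 ± 1.33 and −1.61 ± 1.59, and the summed copies at −0.97 and −1.46, none of them called. snRNA:U2:34ABb was called in the mutant with the replicate block (−1.77, edgeR adjusted p = 0.0280). The copy snRNA:U2:38ABb was lower in both genotypes, at −2.46 ± 0.75 and −3.13 ± 0.84, and each of these calls was lost without the IgG library of replicate 3 of its genotype. U6, the catalytic snRNA, was tested through snRNA:U6:96Ac alone, which passed the filter only with IgG libraries. That copy was at −2.08 ± 1.42 and −2.32 ± 1.20, not called. The summed U6 copies were called in the wild type (−1.92, edgeR adjusted p = 0.0453) but not in the mutant (−1.89, adjusted p = 0.104).

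Among snRNAs of the minor spliceosome, U4atac, U6atac and U11 were lower in the Fmr1 pull-down. snRNA:U4atac (FBgn0263018, 3R:5195004-5195163, minus strand), the minor counterpart of U4, held 3.14, 9.82, 12.6, 5.16 and 3.68 CPM in wild-type Fmr1 libraries against 14.2, 68.2, 105, 16.4 and 23.1 CPM in IgG. The groups did not overlap, and the log2 fold changes were −2.79 ± 0.69 (edgeR adjusted p = 0.00310) in the wild type and −3.47 ± 0.77 (adjusted p = 0.00289) in the mutant. snRNA:U6atac (FBgn0041717, 2L:8389724-8389820, plus strand) was at −2.88 ± 0.86 (adjusted p = 0.0116) and −4.12 ± 0.84 (adjusted p = 0.00129), with the wild-type call lost without the IgG library of replicate 3.

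U11 (FBgn0083987, 3L:3893056-3893330, minus strand), which recognises the 5′ splice site of minor introns, had the narrowest range of the minor snRNAs. Its wild-type Fmr1 libraries held 6.95, 6.40, 5.54, 4.04 and 3.96 CPM and its IgG libraries 9.49, 15.2, 28.6, 17.5 and 23.6 CPM, without overlap. In the mutant these were 4.71, 6.79, 8.05 and 3.44 CPM and 13.0, 19.2, 17.5 and 20.0 CPM, again without overlap. The log2 fold changes were −1.98 ± 0.39 (edgeR adjusted p = 0.000336) and −1.67 ± 0.45 (adjusted p = 0.00941), and the mutant call was lost without the IgG library of replicate 7.

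U12 (FBgn0041721, 3L:16653769-16654006, plus strand), the minor counterpart of U2, spanned a wide range in the pull-down libraries. It held 3.29, 61.2, 37.0, 1.74 and 1.49 CPM in the wild-type Fmr1 libraries of replicates 1, 2, 3, 5 and 7, 14.2, 538, 208, 7.66 and 17.7 CPM in IgG and 1.99, 6.27, 12.0, 2.30 and 4.76 CPM in inputs. In the mutant it held 10.6, 49.3, 65.3 and 1.43 CPM in the Fmr1 libraries, 13.0, 192, 125 and 11.7 CPM in IgG and 28.1, 17.9, 19.8 and 14.8 CPM in inputs. Replicates 2 and 3 were the highest pull-down libraries of both antibodies and both genotypes, and of the wild-type inputs with a smaller gap, while the mutant inputs showed no such order. Fmr1 over IgG was −2.86 ± 1.18 in the wild type (edgeR adjusted p = 0.0654) and −1.44 ± 1.28 in the mutant (adjusted p = 0.467), neither called. In each same-numbered pair of libraries of both genotypes the IgG library held more U12 than the Fmr1 library.

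The same replicates stood out for other snRNAs, though not for all. snRNA:U5:63BC held 2.96, 47.6, 49.0, 5.30 and 1.56 CPM in wild-type Fmr1 libraries and 9.49, 285, 127, 23.0 and 20.2 CPM in IgG, with replicates 2 and 3 highest in each. snRNA:U2:34ABa held 16.3, 84.0, 124, 7.46 and 3.11 CPM in wild-type Fmr1 libraries, again highest in replicates 2 and 3, but 147, 134, 118, 39.4 and 43.4 CPM in IgG. snRNA:U1:95Cc was highest in replicate 1 of IgG, at 498, 48.0, 22.1, 10.9 and 5.57 CPM in the wild type and 273, 33.6, 6.86 and 11.7 CPM in the mutant. By contrast RNase P RNA spanned 17.7 to 24.8 CPM in the wild-type Fmr1 libraries.

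**Figure D2:**
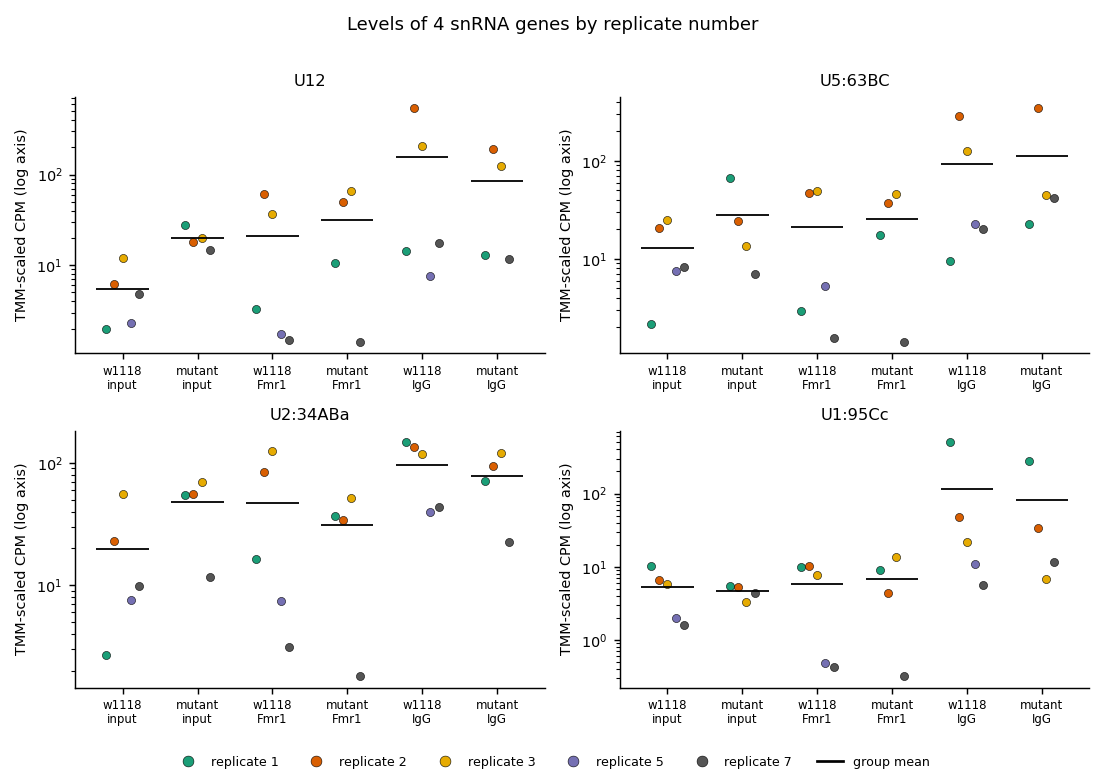
TMM-scaled CPM on a log axis of U12, snRNA:U5:63BC, snRNA:U2:34ABa and snRNA:U1:95Cc in the 27 libraries, points coloured by replicate number and lines at group means. U12 reaches 538 and 208 CPM in the wild-type IgG libraries of replicates 2 and 3 and at most 17.7 CPM in the others.

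U7 and LU, an snRNA gene named without a known role here, rest on few reads. U7 (FBgn0053504, 3L:3593823-3593893, plus strand) had 0, 2, 0, 5 and 1 counts in wild-type inputs, 35, 61, 40, 5 and 2 in Fmr1 libraries and 0, 2, 14, 3 and 33 in IgG libraries, or 1.28, 3.03, 2.77, 0.349 and 0.141 CPM in Fmr1 and 0, 5.05, 9.09, 3.28 and 5.41 CPM in IgG. Fmr1 over IgG was −1.83 ± 0.72 in the wild type (edgeR adjusted p = 0.0502) and 0.09 ± 1.10 in the mutant, and LU was at −2.02 ± 0.88 and −1.35 ± 0.86, none of them called.

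Among the 18 tested tRNA genes, 10 were lower in the Fmr1 pull-down than in IgG in the wild type and 11 in the mutant, and none was higher. Since 11 of the 18 passed the filter only with their IgG libraries, a lower level in Fmr1 was favoured for them by the filter. Of the other 7 genes, 3 were lower in the wild type and 2 in the mutant. Over all genes tested 16.9% and 9.53% were lower. Of the genes named here, tRNA:Glu-TTC-1-3, tRNA:Lys-CTT-1-1, tRNA:Gln-CTG-1-1 and tRNA:Glu-CTC-1-1 passed only with IgG libraries. tRNA:Glu-TTC-1-3, for a glutamate tRNA, had the smallest p in the wild type. It held 0.366, 0.198, 0.208, 0.907 and 0.212 CPM in Fmr1 libraries and 4.74, 0, 3.89, 4.38 and 14.1 CPM in IgG, which overlap only through the IgG library of replicate 2 at 0 counts. Its log2 fold change was −4.15 ± 0.66 (edgeR adjusted p = 2.15e-05), and −2.40 ± 1.32 in the mutant, not called. tRNA:Pro-CGG-2-2 was at −4.41 ± 1.09 and −6.56 ± 1.27, and tRNA:Lys-CTT-1-1 at −3.85 ± 0.76 and −3.30 ± 1.06, all called. tRNA:Ser-TGA-1-1 (−2.41 ± 1.54 and −5.09 ± 1.38) and tRNA:Gln-CTG-1-1 (−1.44 ± 0.76 and −3.39 ± 0.97) were called in the mutant only, and the pseudogene tRNA:Ile-AAT-2-1Psi (−3.23 ± 0.69 and −2.47 ± 1.00) in the wild type only. The differences between genotypes were tested for these and none passed. Calls that ended without 1 library were those of tRNA:Pro-CGG-2-2 in the wild type (IgG replicate 3), tRNA:Lys-CTT-1-1 in the mutant (IgG replicate 2 or 3), tRNA:Ser-TGA-1-1 (IgG replicate 2) and tRNA:Gln-CTG-1-1 (IgG replicate 1 or 3). The hosts of these genes that were tested, such as EcR around tRNA:Lys-CTT-1-1 (0.43 ± 0.22) and sm around tRNA:Glu-TTC-1-3 (0.32 ± 0.23), were not called in the wild type. tRNA:Glu-CTC-1-1 had 0 counts in all wild-type Fmr1 libraries, and set against a floor of 3 counts over the group its log2 difference was at most −6.93. The IgG libraries held 0, 5, 10, 1 and 0 counts, and without that of replicate 2 the limit was −5.84. In the mutant it was at −4.53 ± 1.42 (adjusted p = 0.0262), a call lost in 5 of the fits that left out 1 library.

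Single tRNA genes were read at very low depth. The 100 tRNA genes covered 22 isotypes, led by serine with 756 counts, glutamate with 589 and proline with 405 over all libraries. Of the 100 genes, 13 had 0 counts in all 9 Fmr1 libraries, 18 in all 9 IgG libraries and 0 in all 9 inputs, and 54 lie inside another gene. A library's count of 0 allows up to 3 counts, which is 0.0554 CPM in the deepest library and 15.2 CPM in the shallowest. Summed over the 100 genes, wild-type Fmr1 libraries held 5.70, 5.76, 6.09, 7.67 and 4.31 CPM, IgG libraries 9.49, 65.7, 67.5, 16.4 and 68.5 CPM and inputs 9.78, 25.2, 39.4, 15.2 and 9.38 CPM. In the mutant the sums were 2.69, 3.31, 6.18 and 1.88 CPM, 32.6, 94.5, 51.8 and 19.4 CPM and 37.2, 40.4, 31.0 and 14.0 CPM. Every Fmr1 sum lay below every IgG and input sum of its genotype. As background, RNA-seq made without steps for modified RNA is known to recover mature tRNAs poorly.

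**Figure D3:**
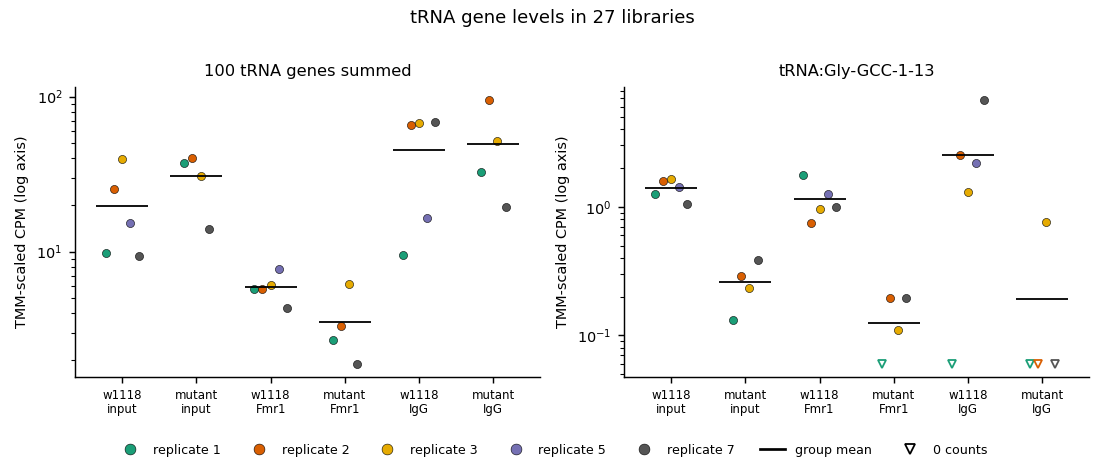
TMM-scaled CPM on a log axis of the 100 tRNA genes summed (left) and of tRNA:Gly-GCC-1-13 (right) in the 27 libraries, points coloured by replicate number, lines at group means and open triangles for libraries with 0 counts. The summed Fmr1 libraries lie between 1.88 and 7.67 CPM, and tRNA:Gly-GCC-1-13 lies at 0.131 to 0.383 CPM in mutant inputs and 1.06 to 1.65 CPM in wild-type inputs.

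Other short transcripts were also lower in the Fmr1 pull-down. Of 206 tested snoRNA and scaRNA genes, 197 were lower than IgG in the wild type and 188 in the mutant, with medians of −3.93 and −4.44. Of 80 tested ribosomal protein mRNAs 64 and 62 were lower, with medians of −1.25 and −1.28, and of 146 tested protein-coding genes of at most 450 bases 83 and 59 were lower, with medians of −1.70 and −1.69. The medians of the 25 tested RNAs other than tRNA, −2.79 and −3.22, lay between those of the short protein-coding genes and of the snoRNAs, and these differences between sets were not tested. All these sets were counted without setting apart genes that passed the filter only with IgG libraries, 3 of the 25 among them.

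Against input, 23 of the 43 genes were lower in the Fmr1 pull-down of the wild type, 1 was higher and 19 were not called, with a median of −1.91, and 24 were lower, 1 higher and 18 not called in the mutant, with a median of −2.38. Over all genes 24.9% were lower and 24% higher in the wild type and 24.4% and 22.2% in the mutant, so the share of genes called was high everywhere. The 29 genes that passed without IgG libraries gave 18 lower and 1 higher in the wild type and 19 lower and 1 higher in the mutant. Some of the 29 were over the filter level in inputs and in no Fmr1 library, so the filter favoured a lower Fmr1 level for them. The 1 higher gene, U7, was over it in Fmr1 libraries and in no input, so a higher level was favoured for that gene. The 7 tRNA genes among the 29 gave 6 lower in each genotype, with medians of −3.83 and −5.20. All of these 7 but tRNA:Gly-GCC-1-13 were over the filter level in inputs and in no Fmr1 library. Their lower Fmr1 level was thus favoured by the filter. The 10 genes over the filter level in every library gave 6 lower and 0 higher in each genotype, with medians of −1.97 and −2.89. From the levels above, 7SK was 21.6-fold lower in the wild type (log2 −4.43 ± 0.37, edgeR adjusted p = 1.95e-09) and 35.8-fold lower in the mutant (−5.16 ± 0.43, adjusted p = 4.08e-09). RNase P RNA fell by 4.85 ± 0.30 and 5.61 ± 0.34, RNase MRP RNA by 5.16 ± 0.46 and 5.47 ± 0.53, and the 7SL gene CR32864 by 5.47 ± 1.01 and 7.67 ± 1.27. These calls were kept without any single library.

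The spliceosomal snRNAs divided in this comparison. snRNA:U4atac (−3.16 and −3.61), snRNA:U6atac (−3.91 and −4.92), U11 (−2.35 ± 0.35 and −3.39 ± 0.41), snRNA:U4:38AB (−2.64 and −4.56) and snRNA:U4:39B (−1.59 ± 0.65 and −2.40 ± 0.74) were lower than input in both genotypes. Of the U5 copies, snRNA:U5:38ABa was lower in both genotypes (−1.50 and −1.51), snRNA:U5:14B in the wild type (−2.84) and snRNA:U5:23D (−2.50) and snRNA:U5:34A (−2.26) in the mutant, and each of these calls was lost in 2 to 6 of the fits that left out 1 library. Among the tRNA genes 10 were lower in the wild type and 11 in the mutant, against 24.9% and 24.4% of all genes. Of these, tRNA:Ser-TGA-1-1 was at −4.40 ± 0.91 and −5.81 ± 1.07. That gene was over the filter level in inputs and in no Fmr1 library. For the wild-type call of snRNA:U4:39B (edgeR adjusted p = 0.0450), leaving out any of 5 libraries ended it, the inputs of replicates 2 and 3 and the Fmr1 libraries of replicates 1, 5 and 7. snRNA:U1:82Eb was lower in the wild type (−2.17 ± 0.68, adjusted p = 0.0108) and not called in the mutant (−1.55 ± 0.75). snRNA:U1:95Cc (0.19 ± 1.11 and 0.50 ± 1.23), snRNA:U5:63BC (0.70 ± 1.03 and −0.14 ± 1.12), snRNA:U2:34ABa (1.23 ± 0.89 and −0.63 ± 0.97) and U12 (1.89 ± 1.16 and 0.65 ± 1.21) were not called. With the replicate block, snRNA:U2:34ABb was higher than input in the wild type (1.66, adjusted p = 0.00586) and lower in the mutant (−1.49, adjusted p = 0.00658), and snRNA:U1:82Eb was lower in the mutant too (−1.69, adjusted p = 0.00213).

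For U12 the same-numbered Fmr1 and input libraries did not differ in 1 direction. Fmr1 was above input in replicates 1, 2 and 3 of the wild type and 2 and 3 of the mutant, and below it in the others. U7 was the single gene called higher over input, at 3.16 ± 0.85 in the wild type (edgeR adjusted p = 0.00295) and 2.38 ± 0.85 in the mutant (adjusted p = 0.0231), from at most 6 counts in any input. It was over the filter level in pull-down libraries and in no input, so the filter favoured a higher level than input in Fmr1 and IgG. Leaving out either the input of replicate 3 or 7 or the Fmr1 library of replicate 2 or 3 ended the mutant call. In IgG U7 was also above input, by 4.99 ± 0.91 in the wild type (adjusted p = 0.000186), while the mutant value of 2.29 ± 1.26 was not called (adjusted p = 0.242), and Fmr1 over IgG was not called, as given above.

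**Figure D4:**
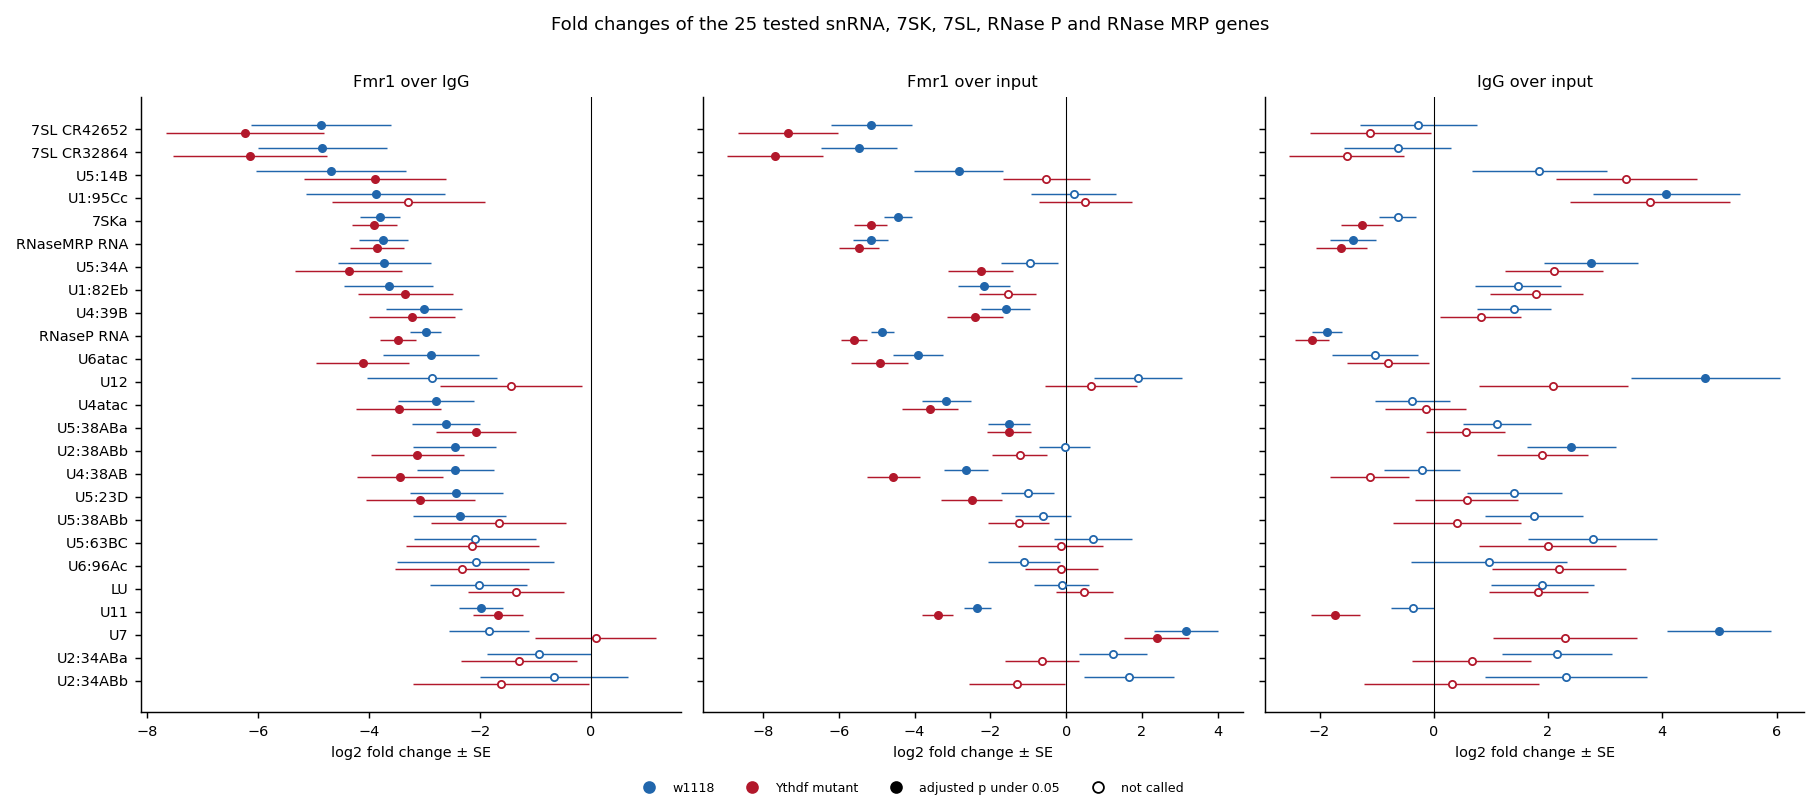
Log2 fold changes with SE of the 25 tested snRNA, 7SK, 7SL, RNase P and RNase MRP genes for Fmr1 over IgG, Fmr1 over input and IgG over input, in the wild type (blue) and the Ythdf mutant (red). Filled points passed an adjusted p under 0.05, and 18 of the 25 did so for Fmr1 over IgG in the wild type, all below 0.

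IgG alone also changed the make-up of these RNAs relative to input. In the wild type 12 of the 43 genes were higher in IgG, 3 lower and 28 not called, with a median of 1.41, and in the mutant 6 were higher, 4 lower and 33 not called, with a median of 0.57. Over all genes 15.2% were called higher and 14.1% lower for the w1118 libraries and 5.62% and 5.64% for the mutant. With DESeq2's size factors the split of all genes moved from 1744 higher and 1616 lower to 2165 and 1185, and from 645 and 647 to 802 and 512. Of the 29 genes that passed without IgG libraries, those called in the wild type were 6 higher and 3 lower, and in the mutant 0 and 4. The genes lower in IgG than in input included RNase P RNA (−1.87 ± 0.27, edgeR adjusted p = 1.58e-05, and −2.13 ± 0.30, adjusted p = 4.32e-05) and RNase MRP RNA (−1.42 ± 0.40 and −1.62 ± 0.45) in both genotypes. 7SK was lower in the mutant (−1.26 ± 0.37, adjusted p = 0.0266), a call that ended in 7 of the fits that left out 1 library, and was not called in the wild type (−0.63 ± 0.33). U11 was lower in the mutant as well (−1.72 ± 0.43, adjusted p = 0.0107), a call lost without the input of replicate 7. The mutant call of RNase MRP RNA was lost without the input of replicate 1 or the IgG library of replicate 2 or 3.

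The genes higher in wild-type IgG than in input were snRNAs and tRNA genes. U12 was at 4.75 ± 1.30 (edgeR adjusted p = 0.00835), snRNA:U1:95Cc at 4.07 ± 1.29 (adjusted p = 0.0209), snRNA:U5:34A at 2.76 ± 0.83 (adjusted p = 0.0132) and snRNA:U2:38ABb at 2.41 ± 0.78 (adjusted p = 0.0198). The call of snRNA:U1:95Cc was lost without the IgG library of replicate 1, and those of snRNA:U5:34A and snRNA:U2:38ABb without that of replicate 3. Apart from tRNA:Gly-GCC-1-13, given below, the tRNA genes among them passed the filter only with IgG libraries, so a high level there was a condition of being tested. tRNA:Glu-TTC-1-3 was at 4.10 ± 0.68, tRNA:Lys-CTT-1-1 at 3.71 ± 0.80 and tRNA:Glu-CTC-1-1 at 3.92 ± 1.46. The call of tRNA:Lys-CTT-1-1 was lost without the IgG library of replicate 7 and that of tRNA:Glu-CTC-1-1 in 6 of the fits that left out 1 library. In the mutant, where same-numbered libraries deviated together, the replicate block raised the count of called genes from 10 to 17, and among the named genes it called snRNA:U5:34A (2.83), snRNA:U1:82Eb (1.88), snRNA:U1:95Cc (3.11), snRNA:U5:14B (3.71), snRNA:U2:38ABb (2.17) and tRNA:Gln-CTG-1-1 (2.70) higher and 7SLRNA:CR32864 (−1.36) lower. Of these, snRNA:U5:14B and tRNA:Gln-CTG-1-1 passed the filter only with IgG libraries, so a higher level in IgG was favoured for them.

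Between genotypes, the inputs differed in 1 of the 43 genes, which was lower in the mutant, and 42 were not called. Over all genes 2.48% were lower and 3.26% higher, or 284 and 374 genes, and with library totals in place of TMM 161 and 585. In whole-head RNA, fewer cells of a type and less RNA per cell cannot be told apart. The gene was tRNA:Gly-GCC-1-13 (FBgn0011872, on arm 2R, 71 bases, in no other gene), for a glycine tRNA. It held 1.27, 1.59, 1.65, 1.42 and 1.06 CPM in wild-type inputs, from 7, 21, 19, 13 and 8 counts, and 0.131, 0.292, 0.234 and 0.383 CPM in mutant inputs, from 2, 5, 4 and 4 counts. The groups did not overlap, and the log2 difference was −2.47 ± 0.55 (edgeR adjusted p = 0.00510). Near-identical copies can share reads, and another glycine copy with the same anticodon, tRNA:Gly-GCC-1-7, had 0 counts in all wild-type inputs and 13, 12, 10 and 0 counts in mutant inputs. That gene was too low to be tested and is named after its values were seen. All glycine tRNA genes summed differed by −0.57 (adjusted p = 0.584) and were not called. The call of the single gene was kept without any single library and, at adjusted p = 0.181, was lost in replicates 1 and 7 of the mutant against 1, 5 and 7 of the wild type.

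In the pull-downs this tRNA gene was separated in Fmr1 alone. The wild-type Fmr1 libraries held 1.75, 0.744, 0.969, 1.26 and 0.990 CPM and those of the mutant 0, 0.196, 0.110 and 0.195 CPM, without overlap. The IgG libraries held 0, 2.53, 1.30, 2.19 and 6.72 CPM in the wild type, with 41 counts in replicate 7 and at most 2 in the others, and 0, 0, 0.762 and 0 CPM in the mutant, and they overlapped. Relative to IgG the gene was lower in Fmr1 in the wild type (−1.61 ± 0.49, edgeR adjusted p = 0.0126), a call lost without the IgG library of replicate 7, and it was not called in the mutant. In the wild type it was higher in IgG than in input (1.32 ± 0.50, adjusted p = 0.0480), a call lost in 7 of the fits that left out 1 library.

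The other inputs did not pass the test as fitted. The mutant level of U11, at 69.3, 35.8, 29.8 and 106 CPM against 9.60, 24.1, 33.9, 20.5 and 49.4 CPM in the wild type, differed by 1.12 ± 0.35 (edgeR adjusted p = 0.0519), with overlap. This value lay at the threshold. U11 was called higher in the mutant with library totals (1.29, adjusted p = 0.0192), with DESeq2's size factors (1.13, adjusted p = 0.0478), by DESeq2 (1.14, adjusted p = 0.0445) and with copies of other RNAs summed (1.13, adjusted p = 0.0493). Over all alternatives its adjusted p ran up to 0.661, and without the mutant input of replicate 7 the difference was 0.65 (adjusted p = 0.383). U12 was higher in every mutant input than in any wild-type input, by 1.84 ± 1.21 (adjusted p = 0.443). For 7SK the difference was 0.05 ± 0.34, for RNase P RNA 0.24 ± 0.27, for RNase MRP RNA 0.50 ± 0.41 and for the 7SL genes 1.03 ± 0.78 and 1.34 ± 0.84.

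Whether loss of Ythdf changed the behaviour of these RNAs in the Fmr1 pull-down was tested as the difference between genotypes of each fold change. For Fmr1 over IgG 0 of 43 genes were called by edgeR, against 0% of all genes, with 1 at an unadjusted p under 0.05, and DESeq2 called 0. The difference was −0.10 ± 0.49 for 7SK, −0.11 ± 0.60 for RNase MRP RNA, −0.50 ± 0.40 for RNase P RNA, 0.31 ± 0.59 for U11 and −0.22 ± 0.96 for snRNA:U4:39B. For Fmr1 over input 0 of 43 were called, against 0.00872% of all genes, with 3 at an unadjusted p under 0.05, and DESeq2 called 0. Same-numbered Fmr1 libraries of both genotypes deviated together (r of 0.312 to 0.639), and a fit with the replicate number as a block within each kind of library, added after the data were seen, also called 0 for both differences. Among the 3 genes at an unadjusted p under 0.05 for Fmr1 over input was snRNA:U4:38AB, at −1.91 ± 0.85, and U11, at −1.04 ± 0.51. With SEs of 0.40 to 0.96 for these 5 genes, differences of 1 to 2 on the log2 scale could have gone undetected.

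The mRNAs of proteins that work with these RNAs were mostly not called against IgG. Of all genes, 16.7% were called higher and 16.9% lower in w1118 libraries, against 11% and 9.53% in the mutant, and in short lists many counts lie near these shares. In lists chosen with earlier results of these data known, 0 of 11 tested mRNAs of Sm and Lsm proteins, which form the ring on snRNAs, were called in Fmr1 over IgG of the wild type and 2 were lower in the mutant, LSm1 among them (−1.48 ± 0.41). Against input, where 24.9% and 24.4% of all genes were lower, 9 and 7 of these 11 mRNAs were lower. The other lists are not given against input, so these counts do not show a trait particular to this list. Of 14 mRNAs of spliceosome proteins the wild type had 6 higher and 1 lower and the mutant 2 higher, with Sf3b1, a protein of the U2 particle, at 0.94 ± 0.17 and 0.90 ± 0.18. Of 7 mRNAs for snRNP assembly 1 was lower in the wild type and 0 were called in the mutant, and of 15 for snRNA transcription and processing 2 and 1 were higher, among them the Integrator subunits IntS1 (0.51 ± 0.16) in the wild type and IntS6 (0.74 ± 0.26) in the mutant.

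Against the same shares of all genes, 16.7% higher in the wild type and 11% in the mutant, most of the other lists held 0 to 2 genes in a direction. Of 4 mRNAs for the 7SK particle and P-TEFb, 2 were higher in both genotypes. These were CycT, the cyclin of P-TEFb, at 0.74 ± 0.16 and 0.56 ± 0.17, and bin3, the enzyme that caps 7SK, at 0.73 ± 0.16 and 0.83 ± 0.18, while Cdk9, the kinase, was at −0.38 ± 0.23 and −0.30 ± 0.25. Of 8 mRNAs for the signal recognition particle and its receptor 1 was higher and 1 lower in each genotype, the higher being SrpRalpha at 0.86 ± 0.23 and 0.67 ± 0.24. Of 5 mRNAs of RNase P and MRP proteins 2 were lower in the wild type, Rpp21 at −1.47 ± 0.37 and Rpp25 at −0.77 ± 0.23, and 0 in the mutant. Of 18 aminoacyl-tRNA synthetase mRNAs 6 were higher in the wild type, TyrRS at 1.12 ± 0.28 among them, and 0 in the mutant, and of 11 for tRNA processing the wild type had 1 higher and 2 lower and the mutant 0 called.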

How the data were processed

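The deposited table holds raw counts per gene for 27 libraries of 6 groups. Per the submitters' processing notes the authors used bcl2fastq 2.20, Trim Galore and STAR. The counter, genome build, strand setting and use of molecular barcodes are not given in the sources used here, and libraries were strand-specific and depleted of ribosomal RNA, per the labels' protocols. Between 23.8% and 74.7% of each library's reads sat in 5 entries that name no gene, which were left out. Gene positions are those of the annotation BDGP6.54, matched by gene ID (17710 of 17807 found).

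A filter on low counts (edgeR 4.0.16 under R 4.3.3, filterByExpr, at least 10 counts and a total of 15) kept 11469 genes and dropped 6338. After TMM scaling, 1 robust quasi-likelihood model with 6 groups gave 9 comparisons, each adjusted with the Benjamini-Hochberg method over all genes tested. The fit was tested on simulated data. Fold changes are unshrunk log2 values with SE, and levels are TMM-scaled CPM with SD. A floor of 3 counts covers counting error only. Alternatives were other scalings and filters, DESeq2 1.42.0, summed copies, fits to the compared groups or to sets of replicates, each library left out, and a replicate block. The sets were replicates 2 and 3 and replicates 1, 5 and 7, a division taken over from earlier results of these data, and the labels name no batch.

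The text names every tested gene that is no tRNA gene, the 8 tRNA genes with the highest mean CPM, up to 3 genes of each partner list by mean CPM, and genes that overlap a named one. The genes and lists were chosen with earlier results of these data known. The labels do not say whether replicates came from separate collections of flies, so p-values measure the spread between these libraries, which may be technical.

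The protocol divides 1 lysate into input and both pull-downs. Deviations of same-numbered libraries from their group means correlated at 0.137 to 0.495 for all pairs of kinds in the mutant and at 0.176 to 0.473 for Fmr1 and input in the wild type, which counts as pairing. The wild-type correlations were −0.0129 to 0.326 for Fmr1 and IgG and −0.0492 to 0.154 for IgG and input, which do not. Between genotypes they were 0.312 to 0.639 for Fmr1, 0.0493 to 0.194 for IgG and 0.0235 to 0.355 for input, so Fmr1 alone counts as paired there.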

Additional observations from a re-analysis of the deposited data

Results flagged for a closer look

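Of 106 groups of 4 or 5 libraries examined on a log2 scale for the RNAs with a median of at least 10 counts, 6 held a library whose gap to its nearest neighbour was large against the range of its group, and chance alone gives about 1 in 20. The wild-type input of replicate 1 was low for 7SK, at 1422 CPM where the other wild-type inputs held 2471 to 3090.1 CPM. Replicate 7 of the mutant was low for snRNA:U2:34ABa in the input, at 11.8 CPM, and in the Fmr1 library, at 1.82 CPM. The same Fmr1 library was low for snRNA:U4:38AB, at 0.390 CPM. The wild-type Fmr1 library of replicate 1 was high for snRNA:U5:23D, at 3.03 CPM. The mutant input of replicate 3 was low for snRNA:U5:38ABa, at 0.819 CPM. None of these libraries was left out of the values given above.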

How the results depend on the processing

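Depth limits the tRNA genes and the rarer snRNAs. The main counts of called genes for Fmr1 over IgG were 28 in the wild type and 27 in the mutant, for Fmr1 over input 24 and 25, for IgG over input 15 and 10, and for mutant against wild-type input 1. The cause of each change below was not tested, except that no filter adds genes and fewer libraries remove information. Without the filter they were 60 for Fmr1 over IgG in the wild type, 45 and 59 for Fmr1 over input, 31 for wild-type IgG over input and 2 for the inputs. A stricter filter gave 15 and 16 for Fmr1 over input, 8 and 5 for IgG over input and 0 for the inputs, as tRNA:Gly-GCC-1-13 was then not tested. Fitting the compared groups alone gave 14 and 14, 12 and 14, 4 and 5, and 2. Replicates 1, 5 and 7 alone gave 7 for mutant Fmr1 over IgG, 11 and 12 for Fmr1 over input, 0 for mutant IgG over input and 4 for the inputs. DESeq2 gave 52 and 42 for Fmr1 over IgG, 25 for wild-type IgG over input and 2 for the inputs. Summing copies gave 6 for mutant IgG over input. Size factors in place of TMM gave 2 for the inputs and library totals 3. With the replicate block the counts were 34 and 30 for Fmr1 over IgG, 26 and 28 for Fmr1 over input, 23 and 17 for IgG over input and 2 for the inputs. Leaving out 1 library at a time gave 20 to 28 and 21 to 28 for Fmr1 over IgG, 17 to 24 and 21 to 29 for Fmr1 over input, 11 to 14 and 3 to 9 for IgG over input and 1 to 3 for the inputs. For mutant IgG over input the count was 3 to 6 without the mutant inputs of replicates 1, 3 or 7 or the IgG libraries of replicates 2 or 3, and for the inputs it was 2 or 3 without the mutant inputs of replicates 2 or 3 or the wild-type inputs of replicates 3 or 7. Both genotype differences stayed at 0 in every alternative run, the replicate block within each kind of library, chosen after seeing the data, included. The single value that changed direction was tRNA:Gly-GCC-1-13 in wild-type IgG over input, at −0.0778 (edgeR adjusted p = 0.966) in replicates 2 and 3 alone. Of 96 called values of named genes 39 lost the call without some library and 57 kept it. tRNA:Glu-CTC-1-1 with 0 counts in wild-type Fmr1 libraries gave no fold change to compare. Size factors in place of TMM moved the median of all genes by −0.23 for wild-type Fmr1 over IgG.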
